A study of Homo sapiens with 4 samples.

Results

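The axon guidance ligands and receptors described here are 69 of the 19689 protein-coding genes of GENCODE release 44, chosen by symbol: the Eph receptors (EPHA, EPHB), ephrins (EFNA, EFNB), semaphorins (SEMA), plexins (PLXN), netrins (NTN and a digit), UNC5 genes, and Slits and Robos (SLIT or ROBO and a digit). The rule uses gene symbols alone. The prefixes also take UNC50, a Golgi protein, UNC5CL, a relative of UNC5C, and EFNA4-EFNA3, a read-through of neighbouring ephrin genes. All 3 were kept, so the counts hold 14 Eph receptors, 9 ephrins, 20 semaphorins, 9 plexins, 4 netrins, 6 UNC5 genes and 7 Slits and Robos.

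ATAC-seq, in which the transposase Tn5 cuts and tags open chromatin, was carried out in duplicate in C4-2B, a human prostate adenocarcinoma cell line, and in C4-2BER, labelled C4-2B_Enza_Resist and as neuroendocrine like. C4-2BER was derived from C4-2B by continuous exposure to enzalutamide, which blocks the androgen receptor, so each state is a single line and neither carries an engineered allele. The 2 libraries of a line were merged before peaks were called, and the data are 1 peak list per line. No spread between replicates can be had from merged lists, so nothing was tested between the lines, and 95% intervals cover counting error only.

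The C4-2B list held 149676 peaks and the C4-2BER list 118728. Read counts at summits were recovered from the deposited fold and -log10 p values, with a depth ratio of 1.20 in favour of C4-2B, and a reads ratio below is always C4-2BER over C4-2B after scaling for that depth. All 6 luminal markers and all 6 neuroendocrine markers examined had a promoter peak in both lists, while KLK3, which encodes prostate-specific antigen, fell from 171 to 45 reads. Of 6 markers of other cells, PTPRC and CD3E, which mark leukocytes, had a promoter peak in neither list, PECAM1 had one in C4-2BER only, and COL1A1, DCN and CDH5 had one in both. Positions are in hg38 and start from base 1.

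Axon guidance cues steer growing axons and other migrating cells by attraction or repulsion. Ephrins are held on the cell surface and signal to Eph receptor tyrosine kinases on the neighbouring cell. Semaphorins, secreted or membrane-bound, act through plexins, the secreted class with neuropilin co-receptors. Netrins act through DCC and through the UNC5 receptors, which mediate repulsion, and the secreted Slits act through Robo receptors. Many of these genes are very long and have several alternative promoters, and many are used outside the nervous system in epithelia, vessels and tumours.

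The first question was whether the guidance genes had open promoters in each line. Nearly all did, in both lines: 66 of 69 (95.7%, Wilson interval 88.0 to 98.5) had a peak within 2000 bp of a transcription start site (TSS) in both lists, against 77.7% of all protein-coding genes. None had a promoter peak in C4-2B only, a class that held 2.83% of all genes. EPHA8 and NTN3 had one in C4-2BER only (2 of 69, or 2.90%, against 3.39% of all genes), and NTN5 in neither (1 of 69, or 1.45%, against 16.0%). The C4-2BER-only share was near that of all genes in the full lists. When both lists were reduced to their top 50000 peaks, it was 12 of 69 (17.4%), against 6.86% of all genes. The promoters then counted as C4-2BER only were those of SEMA3A, SEMA4C, SEMA4G, SEMA6B, PLXNA4, PLXNC1, PLXND1, UNC5A, UNC5C, SLIT3, EFNB3 and NTN1, which all had a C4-2B promoter peak in the full list and are named after their values were seen. The same rank is a lower -log10 q in the shorter C4-2BER list. The SEMA3A peak of C4-2BER counted at 14.4, while the UNC5A peak of C4-2B, at 26.3, did not. Such a call therefore does not by itself mean more reads in C4-2BER. At the strongest promoter summits the reads ratio of these 12 ran from 0.88 in NTN1 to 4.99 in SEMA4G. CpG-rich promoters were also more frequent: 52 of the 69 (75.4%) had an observed-to-expected CpG ratio of at least 0.6 within 500 bp of the canonical TSS, against 66.6% of all genes. The part of CpG content in the open promoters was not tested.

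By family, a promoter peak in both lists was found for 13 of 14 Eph receptors, 9 of 9 ephrins, 20 of 20 semaphorins, 9 of 9 plexins, 2 of 4 netrins, 6 of 6 UNC5 genes and 7 of 7 Slits and Robos. The netrins were the family with the fewest. The strongest promoter peaks of the families by -log10 q were strong in both lines, and their reads are given for C4-2B first. EPHB3 held 208 and 184 reads, EPHA1 154 and 111, EFNB2 172 and 178, SEMA4F 162 and 172, PLXNB3 110 and 79, and PLXNA1 139 and 122. UNC5B held 130 and 129 reads, ROBO3 128 and 125, and NTN4, the strongest netrin, 49 and 52. The ROBO3 summit in C4-2B lay 942 bp before an internal TSS and 11014 bp past the canonical TSS. Neither list had a peak within 500 bp of that canonical TSS.

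EPHA8, an Eph receptor tyrosine kinase, had its only promoter peak in C4-2BER, at chr1:22563338-22563735. It was a weak peak of 16 reads with a fold of 4.75 over background and a -log10 q of 6.58, and its summit lay 23 bp past a TSS. The nearest C4-2B peak was 3011 bp away. NTN3, a netrin, had a C4-2BER peak of 63 reads, but over a local background 18.5 times the genome-wide floor, so that the fold was 1.80 and the -log10 q 3.47. Neither call passed a -log10 q of at least 10, and NTN3 did not pass 5. The 120 bases before the EPHA8 TSS are shown because this promoter carries the stronger of the 2 line-only calls by -log10 q (chr1:22563369-22563488, plus strand). Capitals mark a match on the other strand to CAGCACC, the left part of the RE1 element bound by the neuronal repressor REST. In this window 2.80% of all genes (551 of 19689) and 2 of the members held it on either strand.
EPHA8: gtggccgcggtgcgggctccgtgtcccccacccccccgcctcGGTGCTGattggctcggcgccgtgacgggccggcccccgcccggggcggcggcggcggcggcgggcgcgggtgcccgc
The stretch was rich in G and C and held 22 CpGs.

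Among the 66 genes with a promoter peak in both lists, the strongest promoter summit held a median log2 reads ratio of 0.19, beside 0.14 for the 15305 genes of the whole annotation with such a pair. The quartiles of the members were -0.07 and 0.40, and 39 of 66 lay above the median of all genes. The ratio was at least 2-fold above that median in 3 members, SEMA4G, SEMA6B and SLIT3 (2.46% of the 15305 genes were). It was at least 2-fold below it in none (1.76% of the 15305 genes were). By family the median log2 ratio was 0.18 in Eph receptors, 0.14 in ephrins, 0.20 in semaphorins, 0.07 in plexins, 0.08 in netrins, 0.20 in UNC5 genes and 0.47 in Slits and Robos. All 7 Slits and Robos lay above the median of all genes, as did 7 of 13 Eph receptors, 5 of 9 ephrins, 11 of 20 semaphorins, 4 of 9 plexins, 1 of 2 netrins and 4 of 6 UNC5 genes.

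**Figure D1:**
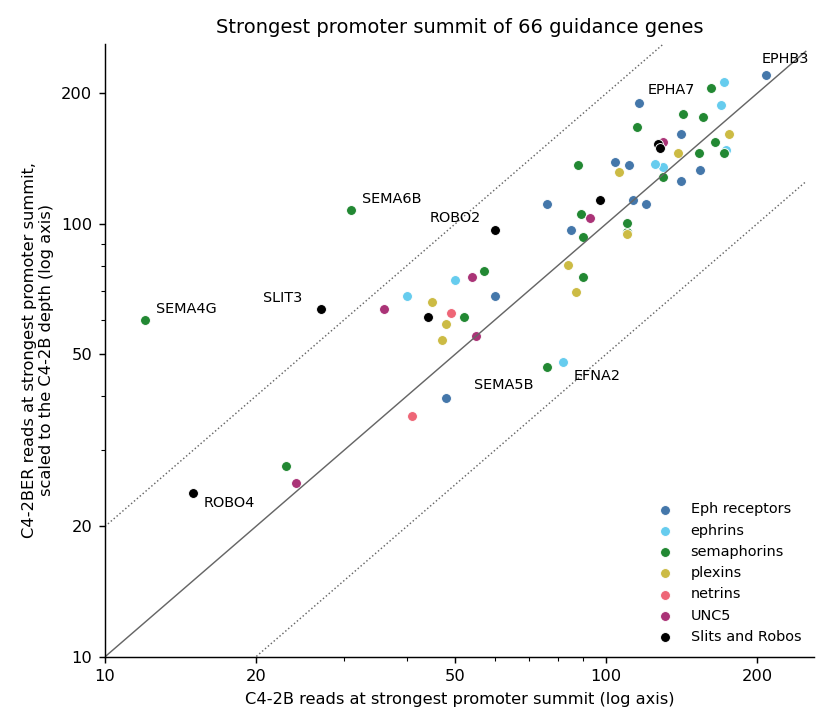
Reads at the strongest promoter summit of each guidance gene with a promoter peak in both lists, C4-2B on the horizontal axis and C4-2BER, scaled to the C4-2B depth, on the vertical axis, both logarithmic; colours mark families, the solid line equal reads and the dotted lines a 2-fold difference. Most of the 66 points lie near the solid line, and SEMA4G, SEMA6B and SLIT3 lie above the upper dotted line.

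SEMA4G, a membrane-bound semaphorin, went from 12 reads to 50, a ratio of 4.99 (interval 2.62 to 10.3). Its peak was 296 bp wide in C4-2B and 1387 bp in C4-2BER, and the strongest summits lay at different places, 256 bp before and 10 bp past a TSS. SEMA6B, a class 6 semaphorin that binds A-type plexins, went from 31 to 90 reads, a ratio of 3.47 (2.29 to 5.41), at a site 1658 bp past a TSS. The local background there rose with the peak, from 2.18 to 7.09 times the floor. SLIT3, a secreted Robo ligand, went from 27 to 53 reads, a ratio of 2.35 (1.45 to 3.88). All 3 promoters held few reads in C4-2B. UNC5C, a receptor for netrin-mediated repulsion, followed with 36 and 53 reads and a ratio of 1.76 (1.13 to 2.77), and EFNB3, a transmembrane ephrin, with 40 and 57 reads and a ratio of 1.70 (1.12 to 2.62). EFNB3 compares summits of separate peaks, and UNC5C summits over 200 bp apart within overlapping peaks.

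At the other end, EFNA2, a lipid-anchored ephrin, fell from 82 to 40 reads, a ratio of 0.58 (0.39 to 0.86). These EFNA2 summits lay 1424 and 1352 bp before its only TSS, and neither list had a peak within 500 bp of that TSS. SEMA5B, a transmembrane semaphorin with thrombospondin repeats, fell from 76 to 39 reads, a ratio of 0.61 (0.41 to 0.91). That was at an alternative promoter, 52297 bp past the canonical TSS in C4-2B. At the canonical SEMA5B promoter the reads were 45 and 39 (1.04, 0.66 to 1.63). The next lowest had intervals that span 1. PLXNA3, a receptor for secreted semaphorins, held 87 and 58 reads (ratio 0.80, 0.56 to 1.12), EPHB2 48 and 33 reads at different sites (0.82, 0.51 to 1.31) and SEMA5A 90 and 63 reads (0.84, 0.60 to 1.17). The PLXNA3 summits lay 1008 and 1002 bp past the TSS, and those of SEMA5A 1374 and 1391 bp past it. The EPHB2 summits lay 63454 bp past the canonical TSS in C4-2B, near an alternative TSS, and 20 bp before the canonical TSS in C4-2BER. Within 500 bp of the canonical TSS the reads were 50 and 50 in PLXNA3 (1.20, 0.79 to 1.81) and 43 and 34 in SEMA5A (0.95, 0.59 to 1.52). For EPHB2 they were 23 and 33 there (1.72, 0.98 to 3.06), so its low ratio was not seen at the canonical promoter. Over the 66 genes, the interval lay wholly above 1 in 13 and wholly below 1 in 2. Of the 15305 protein-coding genes with a promoter peak in both lists, 11.5% and 3.37% had such intervals. In 18 of the 66 the strongest summits lay more than 200 bp apart, and in 10 of these the peaks did not overlap. Stretches in the promoter windows of SEMA6B, SLIT3 and EFNA2 are shown because these genes are among the highest and lowest ratios. The stretch of SEMA4G, the highest, is not shown since it reaches into an exon. SEMA6B (chr19:4556716-4556836, minus strand) and EFNA2 (chr19:1284389-1284509, plus strand) are centred on the summit of the line with more reads, and SLIT3 (chr5:169301140-169301259, minus strand) is the stretch before the TSS, since the stretch around its summit reaches into an exon. None held a match to the 8 motifs searched, which are spelled out with the motif counts, so no capitals appear.
SEMA6B: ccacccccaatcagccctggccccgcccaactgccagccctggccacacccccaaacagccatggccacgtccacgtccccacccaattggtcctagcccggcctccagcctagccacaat
SLIT3: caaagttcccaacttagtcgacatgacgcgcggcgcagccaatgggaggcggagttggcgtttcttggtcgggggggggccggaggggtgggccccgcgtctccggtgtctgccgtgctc
EFNA2: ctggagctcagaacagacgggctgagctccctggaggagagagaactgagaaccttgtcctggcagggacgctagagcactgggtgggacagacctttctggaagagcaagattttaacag
The SLIT3 stretch held 13 CpGs, SEMA6B 4 and EFNA2 2.

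Because many of the genes have several promoters, TSSs less than 1000 bp apart were joined into groups, and a group was open where a peak lay within 500 bp of any of its TSSs. The 69 genes had 154 groups, and 35 genes had more than 1. Open in both lists were 77 groups (50.0%, against 46.2% of the groups of all genes) and in neither 61 (39.6%, against 46.7%). In C4-2B only were 6 of 154 (3.90%, against 2.96% of the groups of all genes), and in C4-2BER only 10 (6.49%, against 4.22%). No gene had a group open in C4-2B only and another in C4-2BER only. The genes named next for their groups, and ROBO4, were chosen after their values were seen.

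The 6 groups of C4-2B belonged to EPHB1, EPHB2, SEMA3C, SEMA4B, SEMA6A and SEMA6B, and none was the canonical promoter. In EPHB2, SEMA4B and SEMA6B the peak overlapped a C4-2BER peak that ended outside the window, so only the groups of SEMA3C (60 reads), SEMA6A (22 reads) and EPHB1 (18 reads) had no C4-2BER peak at the site. The 10 groups of C4-2BER had no C4-2B peak at the site. Of these, 5 were canonical promoters: EPHA8, NTN3, EFNA3, SEMA3B and PLXNB2. PLXNB2, a receptor of class 4 semaphorins, held 72 reads at its canonical TSS with a -log10 q of 17.3, the highest among the C4-2BER-only promoter peaks, while 1 other promoter of the gene was open in both lists and the remaining 3 in neither. The fold of this C4-2BER-only peak over its local background was 3.54. The strongest promoter peak of PLXNB2 was in both lists, with 176 and 135 reads, 1652 and 1650 bp past the canonical TSS. SEMA3B, a secreted semaphorin, had 2 such groups of 46 and 45 reads with a -log10 q of 8.37 and 5.58, and its downstream group was open in both lists with 106 and 84 reads. EFNA3 held 62 reads at its TSS in C4-2BER, and in C4-2B its promoter call came from a peak of 50 reads 813 bp upstream. The local background at the EFNA3 peak of C4-2BER was 12.3 times the floor, so the fold was 2.63 and the -log10 q 9.20. The other C4-2BER-only groups lay at alternative promoters of EPHA7 (53 reads), PLXNB3 (37 reads), EPHA4 (12 reads), SEMA3B and UNC5D (9 reads). The -log10 q was 9.69 in EPHA7, 10.1 in PLXNB3, 5.05 in EPHA4 and 2.75 in UNC5D. Folds over the local background were 2.95 in EPHA7, 3.80 in PLXNB3, 4.53 in EPHA4 and 3.49 in UNC5D. At the SEMA3B peaks they were 2.93 and 2.41. The strongest promoter peak in C4-2B only was that of EPHB6, a kinase-dead Eph receptor, with 120 reads and a -log10 q of 67.0. Its summit lay 1475 bp before an internal TSS and 13380 bp past the canonical TSS. The canonical promoter of the gene was open in both lists.

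At 73 groups of the members both lists had a summit within 500 bp of a TSS, and there the reads ratio could be compared at the same promoter. This comparison was added after the data were seen. It was at least 2-fold above the median of all genes in 5 of 73 (2.43% of 16005 groups of all genes were) and at least 2-fold below it in none (1.77%). These 5 groups belonged to SEMA4G, ROBO2, ROBO1, SLIT3 and SEMA6D. The canonical promoter of ROBO2, a Slit receptor, went from 22 to 70 reads, a ratio of 3.81 (2.33 to 6.46), and its peak widened from 276 to 1157 bp. The local background there went from 1.42 to 4.34 times the floor. At another ROBO2 promoter, more than a megabase upstream, the reads were 60 and 81 (ratio 1.62, 1.14 to 2.29). The canonical promoter of ROBO1 held 21 and 45 reads, a ratio of 2.56 (1.50 to 4.53), while its internal promoter, the stronger of the pair, held 127 and 128 reads (1.21, 0.94 to 1.55). SEMA6D held 14 and 27 reads at an alternative promoter (2.31, 1.17 to 4.76). All 8 Slit and Robo groups lay above the median of all genes, with a median log2 ratio of 0.85, and the lowest was the canonical promoter of SLIT2 with 97 and 95 reads. They came from ROBO1, ROBO2, SLIT1, SLIT2 and SLIT3 alone. Several shared a gene, and the SLIT2 groups shared a C4-2BER peak, so the groups are not independent. ROBO3 and ROBO4 had no group with such a summit in both lists. In ROBO1, then, the promoter that was weak in C4-2B was the one with the higher ratio. The ROBO1 canonical promoter is shown as the 120 bases before its TSS (chr3:79767999-79768118, minus strand), with no capitals since none of the 8 motifs was found.
ROBO1: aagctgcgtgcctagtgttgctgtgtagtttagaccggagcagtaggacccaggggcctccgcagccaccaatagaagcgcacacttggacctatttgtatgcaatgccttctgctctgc

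**Figure D2:**
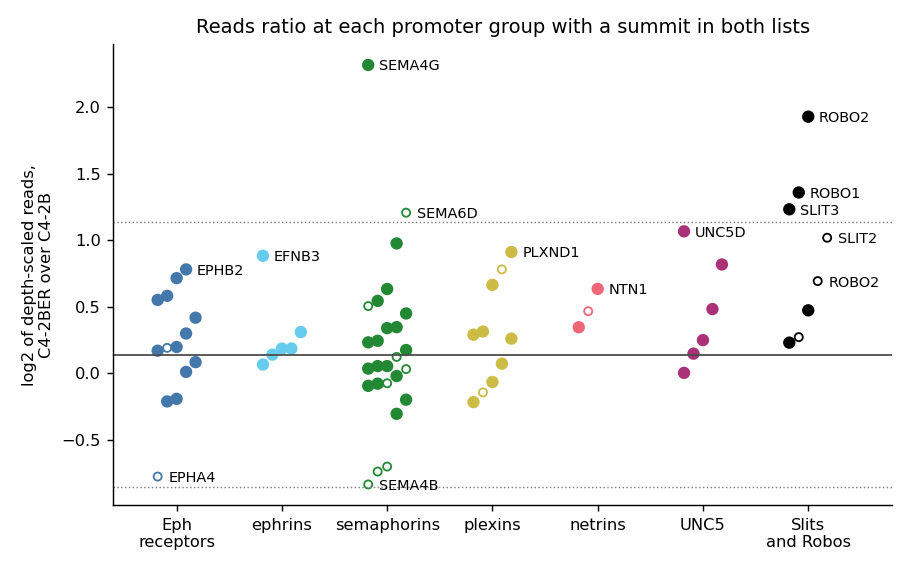
The log2 reads ratio, C4-2BER over C4-2B after depth scaling, at each of 73 promoter groups with a summit in both lists, by family; filled circles are canonical promoters, open circles alternative ones, the solid line is the median of all genes (0.14) and the dotted lines are 2-fold above and below it. SEMA4G, ROBO2, ROBO1, SLIT3 and SEMA6D lie above the upper dotted line, and none lies below the lower one. All 8 Slit and Robo points, several from the same gene, lie above the solid line.

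The next question was which sites inside the genes differed. Over the whole gene interval, promoters included, 68 of 69 members had a peak in both lists (98.6%, 92.2 to 99.7, against 84.5% of all genes). ROBO4, an endothelial Robo, was the 1 member with a peak in neither (11.4% of all genes), and no member had a peak in C4-2B only (2.25% of all genes) or in C4-2BER only (1.85%). ROBO4 still had a promoter peak in both lists, upstream of the gene, of 15 and 20 reads. With the promoter windows left out, 52 members had body peaks in both lists (54.9% of all genes), 5 in C4-2B only (6.91%), 3 in C4-2BER only (2.34%) and 9 in neither (35.9%). The members are long, up to 1743 kb, and of the 35 that span at least 50 kb all had body peaks in both lists, against 91.8% of the 6651 genes of that length.

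Outside the promoter windows, the bodies of the members held 565 C4-2B peaks and 432 C4-2BER peaks, nearly all in introns. Of the C4-2B peaks, 269 (47.6%, 43.5 to 51.7) overlapped no C4-2BER peak, against 42% of the body peaks of all genes. Of the C4-2BER peaks, 132 (30.6%, 26.4 to 35.1) overlapped no C4-2B peak, against 21.2%. Both shares lay above those of all genes, and peaks absent from C4-2BER outnumbered those absent from C4-2B. The line-only peaks were weaker than the shared ones, with medians of 19 and 37 reads in C4-2B and of 13 and 22 in C4-2BER. Of C4-2B peaks with a -log10 q of at least 10, 99 of 333 (29.7%) overlapped no C4-2BER peak of any strength, against 25.7% over all genes, and of such C4-2BER peaks 22 of 181 (12.2%) overlapped no C4-2B peak, against 7.26%. When both lists were first reduced to peaks of that strength, the shares were 56.2% (all genes 49.6%) and 19.3% (all genes 14.4%). When both were reduced to their top 50000 peaks, they were 41.8% (all genes 38.0%) and 30.6% (all genes 31.1%), so the excess of C4-2BER-only peaks over all genes was not seen there.

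The share of C4-2B peaks absent from C4-2BER was much alike across families: 48.1% in Eph receptors, 53.8% in ephrins, 43.9% in semaphorins, 48.9% in plexins, 53.3% in netrins, 51.1% in UNC5 genes and 44.4% in Slits and Robos, with intervals that all overlap. The share of C4-2BER peaks absent from C4-2B ranged more widely. It was 22.2% in Eph receptors (14.2 to 33.1), 20.0% in ephrins (9.51 to 37.3), 20.3% in plexins (12.0 to 32.3), 31.6% in semaphorins (23.1 to 41.5), 33.3% in netrins (17.2 to 54.6), 30.3% in UNC5 genes (17.4 to 47.3) and 41.8% in Slits and Robos (33.4 to 50.7). Ligands and receptors were alike in both measures, with 47.0% and 48.1% of C4-2B peaks absent from C4-2BER and 30.2% and 30.8% the other way. Peaks of a gene lie close together and are not independent, so the intervals are too narrow to compare families by, and no difference between families was tested.

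**Figure D3:**
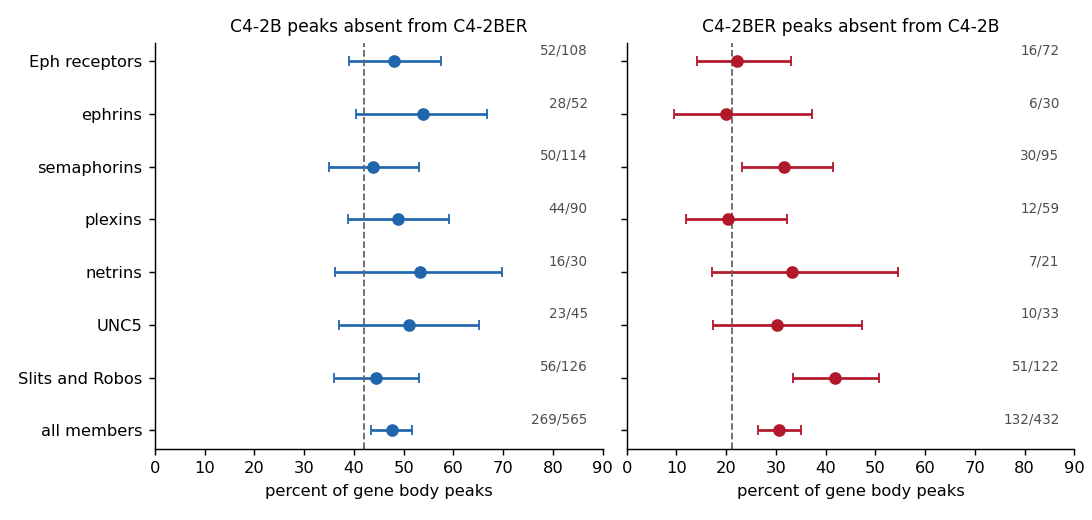
Percent of gene body peaks of each list that overlap no peak of the other, by family, with Wilson 95% intervals for counting error; dashed lines give the value over all protein-coding genes (42% and 21.2%), and the fractions are line-only over all peaks. The Slits and Robos stand highest on the right, at 41.8%, while the families overlap on the left.

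The Slit and Robo share came mostly from the Robos. Of 63 C4-2BER body peaks in Robo genes, 32 (50.8%, 38.8 to 62.7) overlapped no C4-2B peak, beside 19 of 59 (32.2%, 21.7 to 44.9) in the Slits. All 32 lay in ROBO2 (18) and ROBO1 (14), which neighbour each other on chromosome 3. In the intervals within 2 Mb of these genes but outside them the share was 22 of 110 (20.0%), near that of all genes, so the higher share was found inside the gene bodies. The C4-2B-only share did not stand apart there, at 44.4% inside and 47.8% around. The C4-2BER-only peaks were weak: those of ROBO2 held 9 to 28 reads (median 13.5) and those of ROBO1 9 to 50 (median 14). At a -log10 q of at least 10 in both lists the Robo share was 6 of 19 (31.6%, against 14.4% of all genes), and of C4-2BER peaks of that strength 4 of 19 (21.1%, against 7.26%) overlapped no C4-2B peak of any strength. Among the top 50000 peaks it was 2 of 10 (20.0%, against 31.1%), so the higher Robo share was not seen there.

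Along ROBO2, which spans 1743 kb, the balance of line-only peaks differed between stretches. Within 200 kb of the canonical TSS there were 9 C4-2BER-only and 2 C4-2B-only peaks. Upstream of that TSS, in the part transcribed only from distal promoters, there were 11 C4-2B-only and 9 C4-2BER-only peaks, and downstream of it 2 and 9. In ROBO1 the first 300 kb held 6 C4-2BER-only peaks and 1 C4-2B-only peak, and the rest 8 and 10. These stretches were chosen after the peaks were seen.

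**Figure D4:**
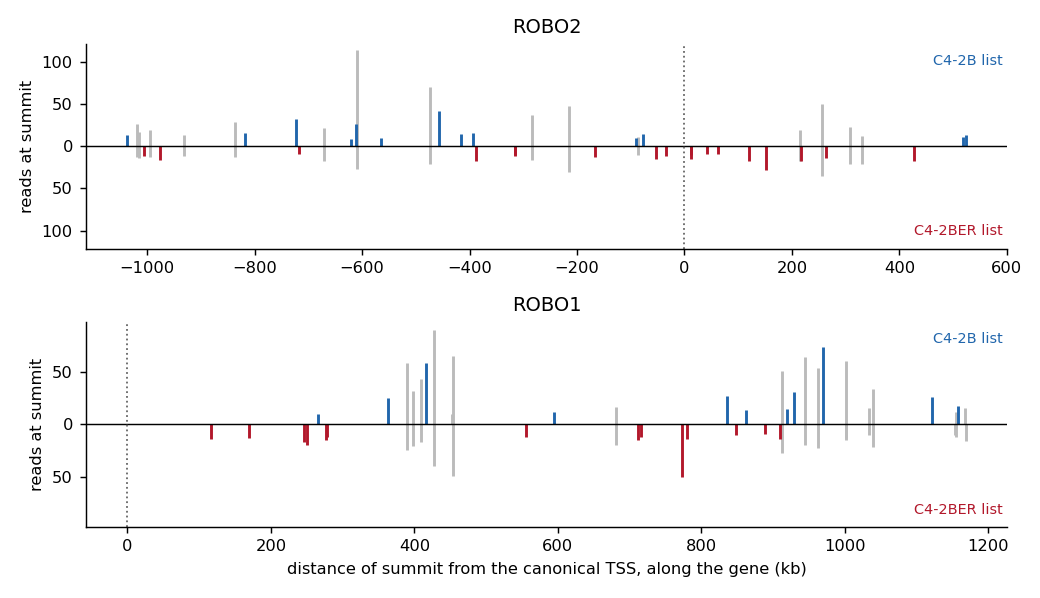
Gene body peaks of ROBO2 and ROBO1 by distance from the canonical TSS in kb (dotted line), with reads at the summit upwards for the C4-2B list and downwards for the C4-2BER list; coloured bars are line-only and grey bars shared peaks. Within 200 kb of the ROBO2 TSS, 9 C4-2BER-only and 2 C4-2B-only peaks appear.

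The secreted class 3 semaphorins also had a higher C4-2BER-only than C4-2B-only share. Of their 28 C4-2B body peaks 6 (21.4%, 10.2 to 39.5) were absent from C4-2BER, and 15 of 38 C4-2BER peaks (39.5%, 25.6 to 55.3) were absent from C4-2B, beside 42% and 21.2% over all genes. In SEMA3A, SEMA3C, SEMA3D and SEMA3E, which lie in 1 stretch of chromosome 7, 26.1% of C4-2B peaks were absent from C4-2BER inside the genes and 51.6% in the 2 Mb around them, and 45.5% of C4-2BER peaks were absent from C4-2B inside and 35.4% around. The order was kept at a -log10 q of at least 10, with 5 of 21 peaks (23.8%, all genes 49.6%) and 7 of 23 (30.4%, all genes 14.4%), and among the top 50000 peaks, with 4 of 9 (44.4%, all genes 38.0%) and 8 of 13 (61.5%, all genes 31.1%). The subfamily was chosen after its values were seen, and the numbers are small.

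Gene by gene, 52 of the 69 members had a line-only body peak, against 9829 of the 19689 protein-coding genes. Of these, 34 had more C4-2B-only peaks (73.0% of all genes with a line-only body peak did), 12 had more C4-2BER-only peaks (16.7% of all such genes) and 6 had equal numbers. The 5 with the most C4-2B-only peaks were PLXNA4 (24, beside 5 in C4-2BER only), EFNA5 (22 and 4), EPHA6 (20 and 2), SEMA5A (18 and 3) and SLIT3 (16 and 9). PLXNA4 is a plexin of sensory and sympathetic axons, EFNA5 a lipid-anchored ephrin and EPHA6 an Eph receptor. The highest numbers of C4-2BER-only peaks were in ROBO2 (18, beside 13 in C4-2B only), ROBO1 (14 and 11), SLIT3 (9 and 16) and SLIT2 (8 and 8), followed by PLXNA4, SEMA3C and SEMA6A with 5 each. SLIT3 and PLXNA4 stood among the highest in both directions. These counts were not scaled by gene length, and ROBO2 (1743 kb) and ROBO1 (1171 kb) were the longest members. Per 100 kb, C4-2BER body peaks, shared ones included, numbered 1.89 in ROBO2, 2.56 in ROBO1 and 3.53 in SLIT2. They numbered 5.32 in SLIT3, 5.33 in SEMA6A, 5.56 in SEMA3C and 5.71 in PLXNA4. Around PLXNA4 the C4-2B-only share was lower outside the gene (35.5%) than inside it (49.0%). Around SLIT3 the C4-2BER-only share was 17.1% outside and 26.5% inside, and the C4-2B-only share 40.8% outside and 39.0% inside.

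**Figure D5:**
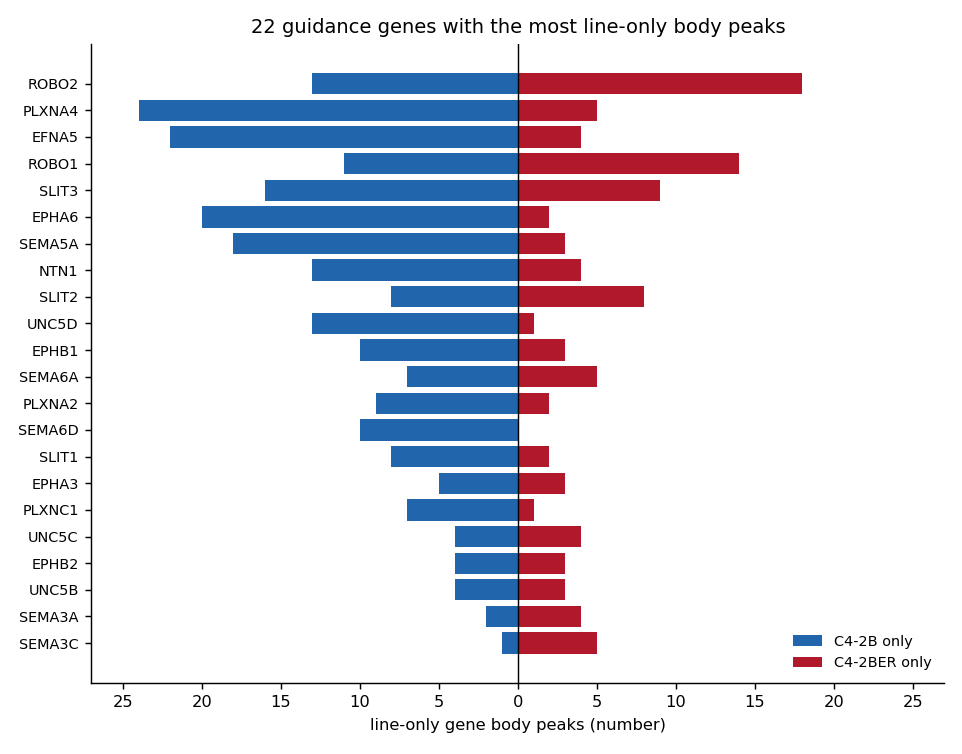
Number of body peaks in C4-2B only (left, blue) and in C4-2BER only (right, red) for the 22 guidance genes with the most line-only body peaks. PLXNA4, EFNA5 and EPHA6 reach 24, 22 and 20 on the left, and ROBO2 and ROBO1, the longest members, reach 18 and 14 on the right. The numbers are not scaled by gene length.

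The strongest line-only body peaks were in introns of UNC5D, EPHA1 and PLXNC1 in C4-2B and of UNC5A, ROBO1 and EFNA5 in C4-2BER. UNC5D, a netrin receptor, held 94 reads at a site with a -log10 q of 81.6. EPHA1, an epithelial Eph receptor, held 115 reads with a -log10 q of 81.5 and a fold of 11.8, and PLXNC1, the receptor of SEMA7A, 100 reads with a -log10 q of 70.2. No C4-2BER peak lay within 3033 bp of any of these sites. In C4-2BER, UNC5A, a netrin receptor, held 88 reads with a -log10 q of 46.6, ROBO1 50 reads with a -log10 q of 30.8 and EFNA5 43 reads with a -log10 q of 26.5. The nearest C4-2B peaks were 1043, 23392 and 4689 bp away.

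The 121 bases centred on these summits, other than that of UNC5D, are shown because they are the strongest sites found in 1 line only within the genes. They lie at chr7:143395671-143395791 (EPHA1, minus strand) and chr12:94152810-94152930 (PLXNC1, plus strand) in C4-2B, and at chr5:176819595-176819715 (UNC5A, plus strand), chr3:78994757-78994877 (ROBO1, minus strand) and chr5:107506002-107506122 (EFNA5, minus strand) in C4-2BER. Capitals mark motif matches, of which PLXNC1 alone had any: a GATA match (AGATAA, on the other strand), and an E-box (CAGCTG) that overlaps a forkhead match (TNTTTAC).
EPHA1: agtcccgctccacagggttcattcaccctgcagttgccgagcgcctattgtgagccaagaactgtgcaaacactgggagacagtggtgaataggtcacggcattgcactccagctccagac
PLXNC1: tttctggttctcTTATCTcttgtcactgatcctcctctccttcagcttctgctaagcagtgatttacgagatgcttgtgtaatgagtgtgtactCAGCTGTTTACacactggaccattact
UNC5A: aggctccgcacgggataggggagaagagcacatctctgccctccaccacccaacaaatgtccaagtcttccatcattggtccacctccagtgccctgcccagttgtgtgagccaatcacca
ROBO1: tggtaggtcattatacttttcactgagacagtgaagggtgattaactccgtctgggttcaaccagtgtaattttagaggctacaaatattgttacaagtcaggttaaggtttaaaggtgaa
EFNA5: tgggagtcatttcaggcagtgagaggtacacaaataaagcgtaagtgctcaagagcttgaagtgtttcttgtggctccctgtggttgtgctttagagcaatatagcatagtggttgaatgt
Within 100 bp of the summit, 14.6% of the C4-2B-only body peaks of all genes held the GATA letters, 12.8% the E-box and 24.6% the forkhead letters.

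Since enzalutamide blocks the androgen receptor, the androgen response element was searched as GNACANNNTGTNC within 100 bp of body summits, on both strands. It was found in 8 of the 269 C4-2B-only peaks of the members (2.97%, 1.51 to 5.76), in 0 of 296 shared C4-2B peaks (upper limit 1.28%) and in 1 of 132 C4-2BER-only peaks (0.758%, 0.134 to 4.17). Over all genes the shares were 2.86%, 0.950% and 0.268%, so the guidance genes held the element in their C4-2B-only peaks about as often as other genes did. The forkhead letters, those of FOXA-type factors, were in 52 of 269 C4-2B-only peaks (19.3%, 15.1 to 24.5), below the 24.6% of all genes, and in 24 of 132 C4-2BER-only peaks (18.2%, 12.5 to 25.6), beside 14.4%. The other motifs were chosen after values had been seen. In the C4-2B-only peaks first and the C4-2BER-only peaks second, AP-1 (TGANTCA) was found in 10.8% and 9.85%, CTCF (CNAGGNGGC) in 3.72% and 6.82%, GATA in 16.4% and 11.4%, the E-box in 15.6% and 18.2%, the RE1 letters in 5.95% and 6.06% and the PAX5 core (GCGTGAC) in 1 of 269 and 0 of 132. Over all genes the same shares were 10.8% and 9.53% for AP-1, 3.92% and 6.99% for CTCF, 14.6% and 10.1% for GATA, 12.8% and 13.4% for the E-box, 5.22% and 5.34% for the RE1 letters, and 0.46% and 0.68% for the PAX5 core.

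The elements in the C4-2B-only peaks lay in introns of ROBO1, EPHB2, EPHA3, PLXNA2, EPHB1, EPHA5 and SLIT1 and in an exon of EFNA1, so 4 of the 8 were in Eph receptor genes, which held 52 of the 269 peaks. This split by family was made after the matches were seen, the numbers are small, and no difference between families was tested. A match says nothing of binding by the receptor. Those in introns are shown with 10 bases either side, the element in capitals, in the direction of the gene, because they are the matches behind the count. They are at chr3:79351832-79351864 (ROBO1), chr1:22853674-22853706 (EPHB2), chr3:89126074-89126106 (EPHA3), chr1:208047646-208047678 (PLXNA2), chr3:135148667-135148699 (EPHB1), chr4:65541958-65541990 (EPHA5) and chr10:97110114-97110146 (SLIT1).
ROBO1: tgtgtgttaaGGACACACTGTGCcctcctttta
EPHB2: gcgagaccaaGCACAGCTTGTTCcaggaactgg
EPHA3: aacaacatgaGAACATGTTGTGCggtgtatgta
PLXNA2: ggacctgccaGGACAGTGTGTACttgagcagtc
EPHB1: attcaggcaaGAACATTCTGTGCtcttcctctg
EPHA5: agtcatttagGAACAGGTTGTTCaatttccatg
SLIT1: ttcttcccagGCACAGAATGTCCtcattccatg
The peaks held 59 reads in ROBO1, 37 in EPHB2, 29 in EPHA3, 39 in PLXNA2, 15 in EPHB1, 12 in EPHA5 and 11 in SLIT1.

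Other genes of the pathway, a list of 42 co-receptors, adhesion molecules and intracellular transducers, were scored in the same way. A promoter peak was present in both lists for 40 (77.7% of all genes had this), and CHL1 and FLRT1 had one in C4-2BER only (3.39% of all genes). The median log2 reads ratio was 0.19, the same as in the members. The genes named here were chosen after their values were seen. The highest ratios were those of FLRT2, an adhesion molecule that binds UNC5 receptors, with 22 and 71 reads (3.86, 2.36 to 6.54), of CRMP1, a transducer of semaphorin signals, with 20 and 62 reads (3.71, 2.21 to 6.48), and of the adhesion molecule NRCAM, with 23 and 60 reads (3.12, 1.90 to 5.29). The lowest was that of MICAL1, a plexin effector, with 118 and 66 reads (0.67, 0.49 to 0.91). Of the receptors, NRP2 (84 and 97 reads) had a ratio of 1.38 (1.02 to 1.87), and the intervals of NRP1 (97 and 94 reads, 1.16, 0.86 to 1.56) and DCC (38 and 39 reads, 1.23, 0.77 to 1.97) spanned 1.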

How the data were processed

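ATAC-seq libraries of C4-2B and C4-2BER (2 each) were trimmed by the authors, aligned to hg38 with Bowtie2, filtered for mapping quality and duplicates, merged by line and used for peak calling with MACS2 without a fragment model, with reads shifted by 100 bp and extended to 200 bp. The sources used here print the shift without a sign, and its direction sets where summits lie relative to the Tn5 cuts, and so the summit distances and motif windows. The MACS2 version is not given in the sources used here. The submitters' processing notes also name bedtools 2.17. The files deposited by the authors give for each summit a fold ratio over the local background, a −log10 p and a −log10 q, each adjusted within its own list, and, of another kind, the summit offset in bp. No column belongs to 1 library, so depth per library is unknown.

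Several rows can share an interval, which was counted once, with its summit of highest −log10 p. Whole reads and background at each summit were solved from the deposited fold, (reads + 1) / (background + 1), and the Poisson −log10 p, and 100% of summits gave whole reads. The step was tested on simulated data. The lowest background gave 30.2 M reads for C4-2B and 25.2 M for C4-2BER if MACS2 used a genome of 2700000000 bp. The lowest summit held 8 and 7 reads, and a site below that could not enter its list.

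GENCODE 44 protein-coding transcripts supplied the TSSs. A promoter peak overlapped 2000 bp either side of any TSS, a body peak overlapped the gene and no promoter window of it, and a peak was shared if it overlapped the other list by 1 bp. Reads ratios carry exact conditional binomial intervals and shares Wilson 95% intervals. Since each line has a single merged list, no SD, p-value or test was possible. Members and lists were chosen with earlier results of these data known. Named by rule are members with a line-only promoter or none, the 5 highest and 5 lowest promoter ratios, the 5 with most line-only body peaks per line, the strongest promoter per family and the 3 strongest line-only body peaks per line. Sequences came from the hg38 genome. Promoter stretches that reach into an exon, and 1 other, are not reported here. Python 3.11.15, numpy 2.4.6, pandas 2.3.3 and scipy 1.17.1 were used.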

Additional observations from a re-analysis of the deposited data

How the results depend on the processing

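No paired analysis was possible because both libraries of a line went into 1 merged list, and leaving out a replicate was likewise not possible. Of 215 alternative values 165 stayed within the counting interval of the main share or, for counts, within the allowed ratio of 3 to 2, and the 50 that did not are given here; the cause was not tested. With a -log10 q of at least 5, 2 members had no promoter peak, C4-2BER-only body peaks numbered 84 (25.3%), and their semaphorin share was 21.4%. At 10, 1 promoter was C4-2B only, 1 C4-2BER only and 5 in neither; the C4-2B-only body share was 56.2% (Eph receptors 67.7%, semaphorins 53.5%), C4-2BER-only peaks numbered 35 (19.3%; Eph receptors and netrins 12.5%, Slits and Robos 20.0%), and the forkhead share of C4-2B-only peaks was 25.7%. Among the top 50000 peaks of each list, 1 promoter was C4-2B only (EFNA2), 12 C4-2BER only and 6 in neither (1.15%, 6.86% and 25.7% of all genes); C4-2B-only body peaks numbered 61 (41.8%; ephrins 30.0%, semaphorins 34.6%, plexins 33.3%) and C4-2BER-only 38 (UNC5 53.8%, Slits and Robos 29.0%). With promoters of 500 bp either side, 1 was C4-2B only (SEMA6B) and 4 in neither. With 50% reciprocal overlap the body shares were 54.2% and 39.8% (C4-2BER-only in Eph receptors 33.3%, in Slits and Robos 50.8%). With strong peaks set against all peaks, C4-2B-only peaks numbered 99 (29.7%; Eph receptors 33.8%, ephrins 39.3%, semaphorins 23.9%, plexins 27.5%, UNC5 30.8%, Slits and Robos 26.0%) and C4-2BER-only 22 (12.2%; Eph receptors 12.5%, ephrins 8.33%, semaphorins 15.9%, plexins 3.85%, netrins 12.5%, Slits and Robos 12.0%). In a motif window of 250 bp the forkhead share was 33.1%. Leaving out UNC50 and UNC5CL, an alternative chosen after seeing the data, moved no value past these limits. The C4-2B list is deeper by 1.20 times, and no summit in it holds under 8 reads, nor any in the C4-2BER list under 7.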
